A study of Mus musculus with 9 samples.

Results

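The GIMAP genes (GTPases of immunity-associated proteins) were followed in RNA sequencing libraries of mouse spleen cells that the labels call CD4+ T cells. The family was taken by gene symbol as Gimap1, Gimap3, Gimap4, Gimap5, Gimap6, Gimap7, Gimap8 and Gimap9. All 8 were found among the 56860 genes of the count table. All 8 passed the filter on low counts, with at least 1131 counts in every library. There were 9 libraries in 3 groups of 3, from mice labelled control, from mice labelled CIA in a series whose title names RA, and from CIA mice treated with luteolin, a plant flavone. Strain, age, dose and duration are not given in the sources used here, nor is it stated whether the 3 replicates of a group are separate animals, so the p-values cover only the variation among these libraries, which may be technical.

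GIMAP proteins share a GTP-binding domain of the AIG1 type and sit on the membranes of the Golgi, lysosomes, mitochondria and other compartments, or in the cytosol. They are abundant in resting T cells, are also made by B cells, NK cells and endothelium, and are best known for keeping mature lymphocytes alive. Mice or rats without Gimap5 lose peripheral T cells, and loss of Gimap1 removes mature T and B cells.

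The 8 genes form 1 cluster of 123.6 kb on chromosome 6 (chr6:48624168-48747785, build mm39). In order along the chromosome it holds Gimap8, Gimap9, Gimap4, Gimap6, Gimap7, Gimap1, Gimap5 and Gimap3. Gimap6 and Gimap3 lie on the minus strand and the other 6 on the plus strand. Their promoters are shown for 4 members whose levels went different ways, namely Gimap9 and Gimap6, which were highest in CIA, Gimap1, which was lower in CIA, and Gimap3, which passed the test in no comparison. The 250 bases before the annotated start are given 5′ to 3′ on the gene's own strand from RefSeq, in build GRCm38.p6, whose coordinates differ from those of the count table. Capitals mark GGAA on either strand, the core that ETS family factors recognise.
Gimap9, GRCm38.p6 chr6:48675885-48676134, plus strand: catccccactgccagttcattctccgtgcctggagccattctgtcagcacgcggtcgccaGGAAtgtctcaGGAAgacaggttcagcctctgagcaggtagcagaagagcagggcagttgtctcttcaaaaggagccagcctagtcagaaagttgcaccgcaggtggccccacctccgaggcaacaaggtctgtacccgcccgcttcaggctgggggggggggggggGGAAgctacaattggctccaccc
Gimap6, GRCm38.p6 chr6:48708245-48708494, minus strand: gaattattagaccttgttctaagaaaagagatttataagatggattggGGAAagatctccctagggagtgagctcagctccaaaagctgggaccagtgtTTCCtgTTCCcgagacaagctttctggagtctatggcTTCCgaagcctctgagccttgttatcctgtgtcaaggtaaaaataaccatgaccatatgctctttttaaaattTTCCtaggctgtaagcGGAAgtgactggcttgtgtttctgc
Gimap1, GRCm38.p6 chr6:48738797-48739046, plus strand: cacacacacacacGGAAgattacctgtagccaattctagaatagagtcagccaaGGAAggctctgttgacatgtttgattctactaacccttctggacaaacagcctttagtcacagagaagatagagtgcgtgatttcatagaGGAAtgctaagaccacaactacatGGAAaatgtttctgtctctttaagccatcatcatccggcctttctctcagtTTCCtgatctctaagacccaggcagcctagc
Gimap3, GRCm38.p6 chr6:48770852-48771101, minus strand: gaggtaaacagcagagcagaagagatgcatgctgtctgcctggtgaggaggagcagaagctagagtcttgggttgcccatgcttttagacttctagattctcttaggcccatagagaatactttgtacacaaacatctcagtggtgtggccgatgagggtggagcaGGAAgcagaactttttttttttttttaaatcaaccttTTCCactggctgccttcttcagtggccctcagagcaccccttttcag

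RefSeq held promoters for all 8 members, with 2 starts for Gimap8. GGAA occurred 3 times before Gimap9, 6 times before Gimap6, 5 times before Gimap1 and 2 times before Gimap3. Of 32851 promoter windows of the same length, 93.4% held the core, with a median of 3 matches. TGTGGT, the letters bound by RUNX factors, was found once before Gimap1, Gimap4 and Gimap7 and before no other member, against 14% of all windows. CACCC, bound by KLF factors, was found before Gimap9, Gimap4, Gimap5, Gimap3 and both starts of Gimap8, against 52% of all windows. CTTTG, bound by TCF and LEF factors, was found before Gimap3 and both starts of Gimap8, against 48.6% of all windows. The core of interferon response elements was in none of the members' windows and in 2.98% of all windows. All motifs were searched on both strands and chosen with the expression values known. A match is a description of the letters and not of binding.

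The libraries held 31234177 to 41815573 counts, and the 8 members took 0.175% to 0.311% of them. Levels are given as CPM, which are counts relative to the TMM-scaled library size, and errors after ± are SE for log2 fold changes and SD over 3 libraries for levels. The cell type in the labels was checked against defining markers. Cd4, the coreceptor that names the cells, was at 2.46 to 3.65 CPM in the control libraries, 82.1 to 151.3 in CIA and 98.5 to 106.4 with luteolin. Cd3e, which encodes a chain of the CD3 complex, ranged over 11.7 to 14.8 CPM in control, 24.99 to 48.1 in CIA and 23.4 to 26.9 under luteolin. Cd8a had means of 17.6 CPM in control, 4.77 in CIA and 4.15 with luteolin. It was above Cd4 in every control library and below Cd4 in every other library. Comparisons with control thus span a reversal in the order of Cd4 and Cd8a. The part of this reversal in the GIMAP values was not tested. The neutrophil transcript S100a9 was above Cd4, Cd8a and Cd3e in every library, at 1503 CPM or more. The libraries thus hold RNA of other cells. Each direction against control is that of the libraries labelled control. In RNA from such mixtures, fewer cells of a type and less RNA per cell cannot be told apart.

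Gimap4, an abundant member of T cells that has been linked to the timing of their death, was the highest member per length in every group. On the RPKM scale, which divides CPM by gene length in kilobases, it stood at 671 in control, 627 in CIA and 507 with luteolin. Gimap6 was next in control at 104 RPKM, and did not stand apart there from Gimap1 at 103. At the low end Gimap5 and Gimap7 were at 25.3 and 17.6 RPKM in control. In CIA the order below Gimap4 was Gimap6 at 170, Gimap9 at 156, Gimap3 at 68.4, Gimap8 at 60.8, Gimap1 at 59.8, Gimap7 at 34.1 and Gimap5 at 27.8 RPKM. The values of Gimap6 and Gimap9 overlapped in CIA, as did those of Gimap3 and Gimap8, of Gimap8 and Gimap1, and of Gimap7 and Gimap5. With luteolin Gimap3 was second at 73.4 RPKM, followed by Gimap6 at 62.5, and only Gimap9 and Gimap1, at 52.8 and 52.3, overlapped as neighbours in the order.

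**Figure D1:**
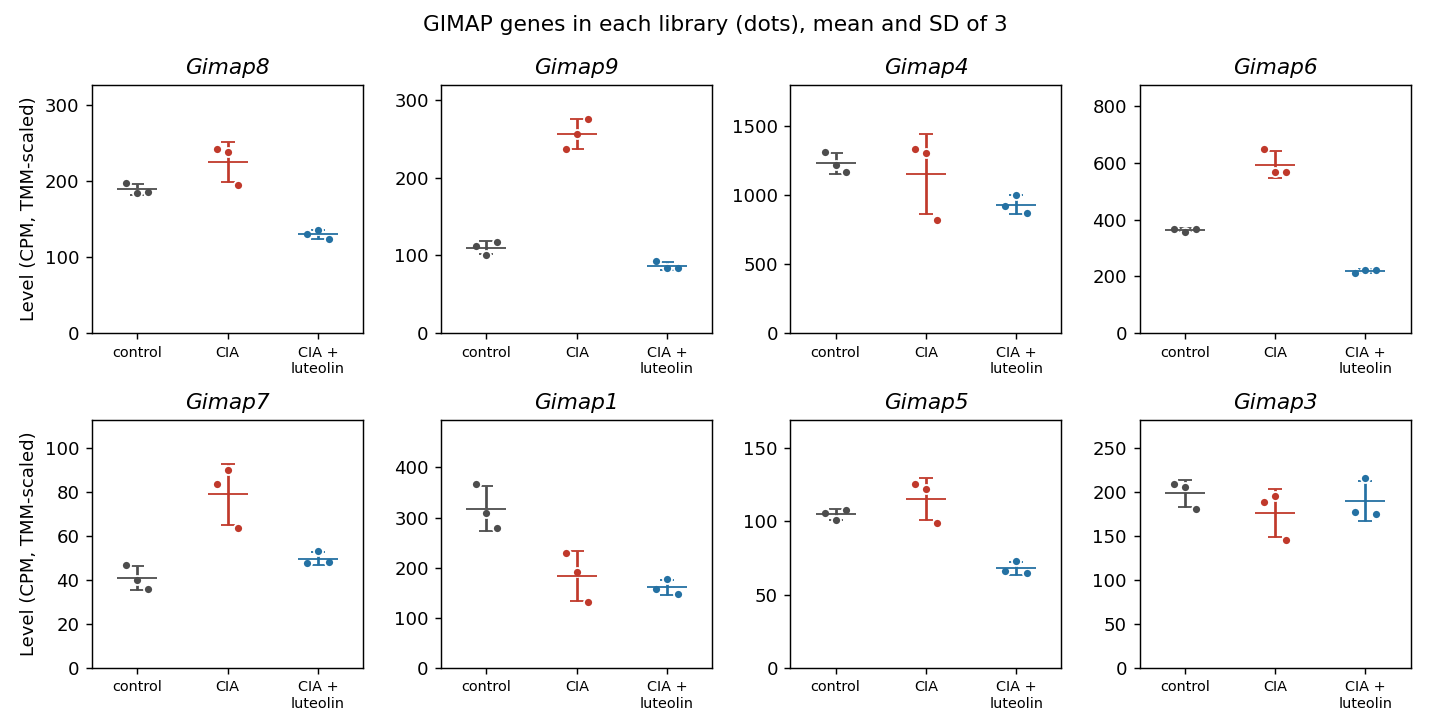
Level of each GIMAP gene in CPM (vertical axes, from 0) in the 3 groups, with a dot per library and a bar for the mean with its SD (n = 3); panels follow the order along chromosome 6. Gimap9, Gimap6 and Gimap7 were highest in all 3 CIA libraries, Gimap1 was highest in all 3 control libraries, and the Gimap3 values of the groups overlapped.

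CIA libraries held more of 3 members than any control library and less of 1. Gimap9, Gimap7 and Gimap6 rose by 1.63- to 2.34-fold and Gimap1 fell by 1.73-fold. In all, 4 of the 8 members were called higher, 1 lower and 3 did not pass (edgeR, adjusted p under 0.05). Of all 19348 genes tested, 51.1% passed in this comparison, 26.6% higher and 24.5% lower, so 5 of 8 is near the share of all genes. Groups that did not overlap were found for 58.7% of all genes, 29.7% higher and 29.1% lower, against 3 members higher and 1 lower. The median log2 fold change of the members was 0.20, against -0.01 over all genes tested, and its range ran from -0.79 to 1.23.

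Gimap9, a small member whose function is little described, had the largest rise. It was at 111.4, 100.5 and 116.8 CPM in the control libraries, 236.5, 256.2 and 275.9 in CIA and 92.6, 84.0 and 83.4 with luteolin. All CIA values lay above all others, and the luteolin values lay below those of control. The change in CIA was 1.23 ± 0.09 on the log2 scale (SE, adjusted p = 6.13e-06).

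Gimap6 is known to bind GABARAPL2, a protein of the ATG8 family that builds autophagosomes. It was at 368.3, 357.6 and 368.0 CPM in control, 647.8, 566.6 and 567.3 in CIA and 211.2, 222.2 and 221.9 with luteolin. The 3 groups did not overlap. Replicates of Gimap6 were close, with a coefficient of variation of 1.67% in control, 7.86% in CIA and 2.88% with luteolin, where the median over all tested genes was 10.4%, 18.9% and 8.72%. Its change in CIA was 0.70 ± 0.07 (adjusted p = 4.37e-05).

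Gimap7, which can pair with other GIMAP proteins and stimulate their GTP hydrolysis, was the lowest member by CPM. It was at 46.9, 40.1 and 35.8 CPM in control, 83.8, 90.2 and 63.6 in CIA and 47.6, 53.2 and 48.4 with luteolin. CIA stood above both other groups, and luteolin stood above control by little. Its change in CIA was 0.95 ± 0.14 (adjusted p = 0.000327).

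Gimap8, the largest protein of the family, carries more than 1 GTP-binding domain. It was at 197.6, 184.0 and 185.2 CPM in control, 241.6, 238.5 and 195.2 in CIA and 130.7, 134.9 and 123.8 with luteolin. CIA replicate 3 lay within the control values, and all luteolin libraries lay below. The call in CIA was marginal, at 0.25 ± 0.09 (adjusted p = 0.0379). It was lost in the fit of only the 6 libraries compared (0.26, adjusted p = 0.0726), without the filter on low counts (0.24, adjusted p = 0.0659) and without any of control replicates 1, 2 and 3 or CIA replicates 1 and 2 (0.19 to 0.28, adjusted p = 0.0609 to 0.131).

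Gimap1 is needed for the survival of mature T and B cells. It was at 367, 308.1 and 278.5 CPM in control, 229.6, 191.6 and 130.5 in CIA and 158.1, 176.8 and 147 with luteolin. Every control library lay above every other library, while CIA and luteolin overlapped. Its change in CIA was -0.79 ± 0.18 (adjusted p = 0.00431). CIA replicate 3, the lowest of its group in Gimap1, was also the lowest in Cd79a, a B cell receptor chain gene, at 24.0 CPM where replicates 1 and 2 were at 81.2 and 53.3 and control at 110.5 to 122.7. The same library was the highest of its group in S100a9, at 8339 CPM where replicates 1 and 2 were at 4783 and 7110. The part of B cell or neutrophil RNA in the Gimap1 result was not tested.

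Gimap5, a lysosomal member required for the survival of resting T cells, did not pass in CIA. It was at 105.9, 100.8 and 107.9 CPM in control, 125.5, 121.8 and 98.6 in CIA and 66.3, 72.8 and 64.5 with luteolin. CIA replicates 1 and 2 lay above control and replicate 3 below it. Its change was 0.14 ± 0.10 (adjusted p = 0.267), and 0.24 with a call without CIA replicate 3 (adjusted p = 0.0182).

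Gimap3, the member closest in sequence to Gimap5, was at 208.8, 205.8 and 180.7 CPM in control, 188.0, 195.5 and 145.1 in CIA and 177.1, 215.2 and 174.9 with luteolin. The 3 groups overlapped. In CIA it had a change of -0.17 ± 0.12 (adjusted p = 0.272). Gimap3 and Gimap5 were the only members whose GENCODE transcripts shared runs of 50 bases, 7.52% of those of Gimap3 and 4.53% of those of Gimap5, so part of their reads could be split between them.

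Gimap4 was at 1315, 1216 and 1167 CPM in control, 1333, 1304 and 817.6 in CIA and 919.7, 1003 and 870.5 with luteolin. CIA replicate 3 was below every other library, while CIA replicates 1 and 2 lay within or above control. The change in CIA was -0.10 ± 0.16 (adjusted p = 0.619), and 0.10 without CIA replicate 3 (adjusted p = 0.284). CIA replicate 3 is the library with the lowest Cd79a and the highest S100a9 of its group. The part of either in the Gimap4 values was not tested.

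**Figure D2:**
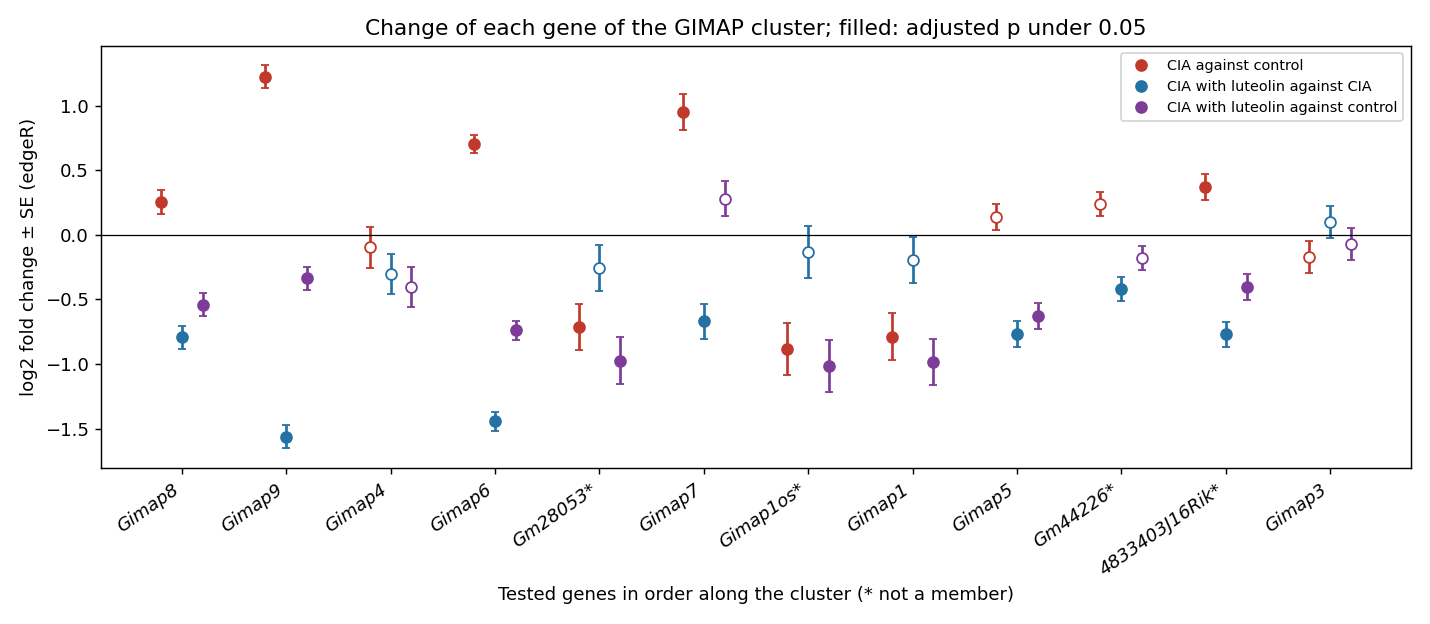
Log2 fold change with its SE from edgeR (vertical axis) of the 12 tested genes of the cluster in their order along chromosome 6, for the 3 comparisons; filled points passed an adjusted p of 0.05 and asterisks mark genes that are not members. In CIA against control Gimap9 at 1.23 and Gimap1 at -0.79 were the extremes among the members.

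With luteolin, 5 members were lower than in CIA and none was higher. Gimap9 fell by 1.56 on the log2 scale (2.96-fold, SE 0.09, adjusted p = 5.31e-07) and Gimap6 fell by 1.44 (2.72-fold, SE 0.07, adjusted p = 2.34e-07). Gimap8 changed by -0.79 ± 0.09, Gimap5 by -0.76 ± 0.10 and Gimap7 by -0.67 ± 0.14. For these 5 genes all luteolin libraries lay below all CIA libraries. Of all genes tested, 24.2% were called lower and 47.3% passed in either direction. All libraries of the groups stood apart for 55.7% of all genes, with 28.0% higher and 27.7% lower. The median over the members was -0.72, against -0.04 over all genes. This comparison and that of CIA with control use the same CIA libraries, so opposite signs in the pair of them are not independent.

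The other 3 members did not pass, and their values turned on single CIA libraries. Gimap4 changed by -0.31 ± 0.16 (adjusted p = 0.129), which became -0.51 with a call without CIA replicate 3 (adjusted p = 9.42e-05). Gimap1 changed by -0.20 ± 0.18 (adjusted p = 0.396), with -0.39 and a call without CIA replicate 3 (adjusted p = 0.0124) and 0.003 without CIA replicate 1. Gimap3 had 0.10 ± 0.12 (adjusted p = 0.531), and -0.02 without CIA replicate 3. In the fit without a filter Gimap4 was called as well (-0.28, adjusted p = 0.00461).

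Against control, luteolin libraries were lower in 5 members, namely Gimap1, Gimap6, Gimap5, Gimap8 and Gimap9. Gimap1 changed by -0.98 ± 0.18 (adjusted p = 0.00139), Gimap6 by -0.74 ± 0.07 (adjusted p = 2.70e-05) and Gimap5 by -0.63 ± 0.10 (adjusted p = 0.000590). Gimap8 had -0.54 ± 0.09 and Gimap9 -0.34 ± 0.09 (adjusted p = 0.00994), the latter not past the threshold without luteolin replicate 2 (-0.26, adjusted p = 0.0814). Of all genes tested, 20.8% were called lower and 45.0% passed. In 6 members all luteolin libraries were below all control libraries and in 1 above, where 30.9% of all genes were below, 32.3% above and 63.3% either.

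Gimap4 was 1 of these 6 but did not pass, at -0.40 ± 0.16 (adjusted p = 0.0548). It was called by DESeq2 (-0.38, adjusted p = 0.0492) and in the fit of only the 6 libraries compared (-0.40, adjusted p = 7.36e-05). In that fit of 6 libraries more genes passed in general, 10792 of 18533 tested against 8708 of 19348 in the main fit. DESeq2 passed 9049 of 19348. Gimap7 was above control in all 3 luteolin libraries and did not pass (0.28 ± 0.14, adjusted p = 0.121), but it was called in the fit of the 6 libraries (0.28, adjusted p = 0.0153). Gimap3 was at -0.07 ± 0.12 (adjusted p = 0.680).

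The make-up of the family also differed between groups. As a share of the summed RPKM of the 8 genes, Gimap4 held 59.7% to 60.3% in control, 45.5% to 54.7% in CIA and 61.2% to 62.1% with luteolin. Gimap9 held 5.58% to 6.69%, 10.8% to 17.2% and 5.82% to 6.97% in the same order, and Gimap6 8.86% to 9.90%, 12.5% to 16.6% and 7.23% to 8.20%. CIA libraries thus held a larger share of Gimap9 and Gimap6 than any other library, and a smaller share of Gimap4. Gimap1 took 8.52% to 10.1% in control, 4.34% to 5.601% in CIA and 6.18% to 6.55% with luteolin, with no overlap between the groups. Gimap3 took its largest share with luteolin, 8.49% to 9.50%, against 6.59% to 7.28% in control and 5.47% to 5.84% in CIA. The summed level of the family was 1116 ± 64.7 RPKM in control, 1204 ± 196 in CIA and 821 ± 53.4 with luteolin (SD, n = 3).

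**Figure D3:**
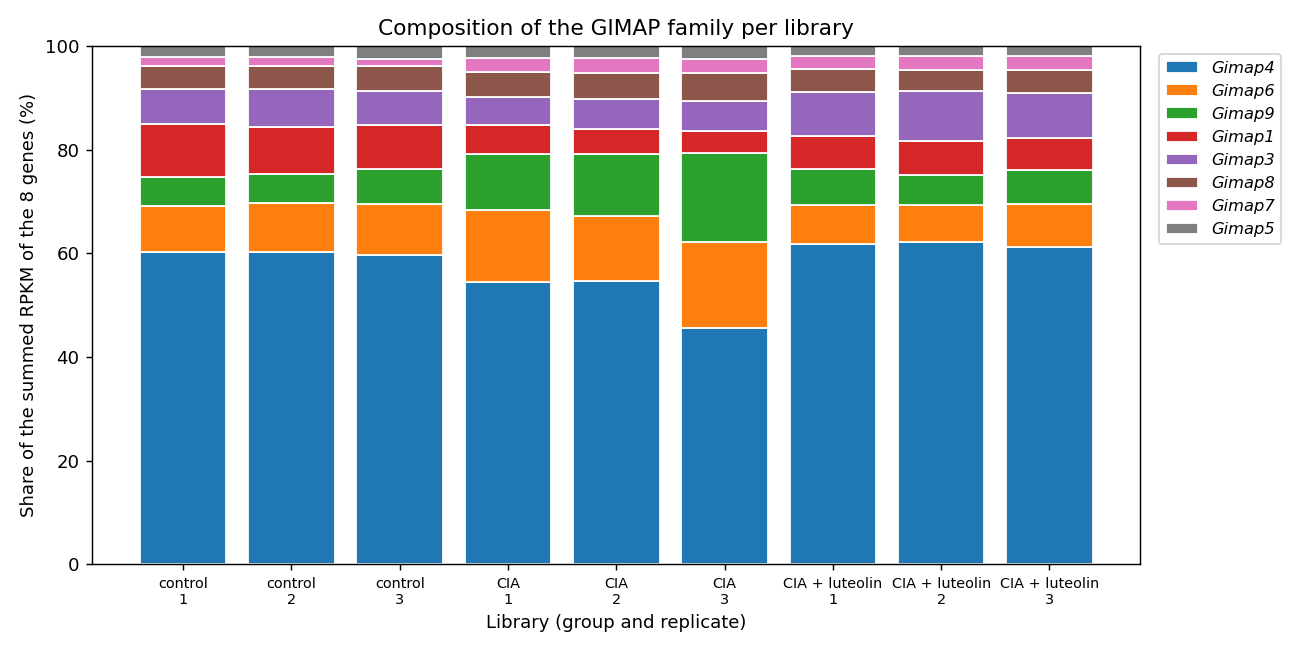
Share of each GIMAP gene in the summed RPKM of the 8 genes (vertical axis, percent) in each of the 9 libraries (bars). Gimap4 made up 45.5% to 62.1%, and the segments of Gimap6 and Gimap9 were larger in the 3 CIA libraries than in the other 6.

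The ratio of Gimap9 to Gimap1, the members that moved furthest apart in CIA, makes the same difference visible in single libraries. Per length it was 0.568, 0.611 and 0.785 in control, 1.93, 2.50 and 3.96 in CIA and 1.10, 0.889 and 1.06 with luteolin. The 3 groups did not overlap, and the pair was chosen after its values were seen. The ratio of Gimap6 to Gimap4 was 0.147 to 0.166 in control, 0.228 to 0.365 in CIA and 0.116 to 0.134 with luteolin.

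The members were set against Cd3e to ask whether they moved as that gene did. Cd3e itself was 1.86-fold higher with luteolin than in control (adjusted p = 0.00505), so a gene with no change of its own has a lower ratio there. In the control libraries Gimap3 was at 22.3, 23.4 and 24.6 times Cd3e per length, in CIA at 11.9, 6.44 and 5.39 times and with luteolin at 11.96, 12.7 and 11.1 times. Gimap9 was at 18.7, 18.0 and 24.9 times in control, 23.5, 13.2 and 16.1 times in CIA and 9.81, 7.77 and 8.33 times with luteolin. All 8 members had a lower ratio in every luteolin library than in any control library, as did 72.5% of the 18629 tested genes with counts in every library. In an exact permutation test over all assignments of the 9 libraries to 3 groups, without direction, the unadjusted p was 0.00714 to 0.0357 for 7 members and 0.214 for Gimap7. Of all genes, 82.5% had an exact p under 0.05 in the same test, so 7 of 8 is near the share of all genes and says nothing particular to the family. The smallest p this design allows is 0.00357. With adjustment over the members 7 passed, and 3 passed without control replicate 1 or without control replicate 2 and none without control replicate 3, where fewer samples enter.

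Against Cd79a, the B cell gene, the order turned. Cd79a was 4.44-fold lower with luteolin than in control (adjusted p = 0.000479), more than any member, so the direction of these ratios was set by the reference. Gimap3 was at 1.07, 1.007 and 0.833 times Cd79a per length in control, 1.31, 2.07 and 3.41 times in CIA and 3.81, 4.09 and 4.39 times with luteolin. Gimap9 was at 0.895, 0.772 and 0.845 times in control and 2.58, 4.27 and 10.2 times in CIA. All 8 members were higher per Cd79a in every luteolin library than in any control library, as were 96.1% of all genes, and 85.9% of all genes had an exact p under 0.05 over the 3 groups. The values are therefore given as a description, with a reference that was added after the data were seen. Cd79a itself was at 116 ± 6.14 CPM in control, 52.8 ± 28.6 in CIA and 26.2 ± 3.61 with luteolin, while Cd3e was at 13.5 ± 1.64, 38.6 ± 12.1 and 25.1 ± 1.71.

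**Figure D4:**
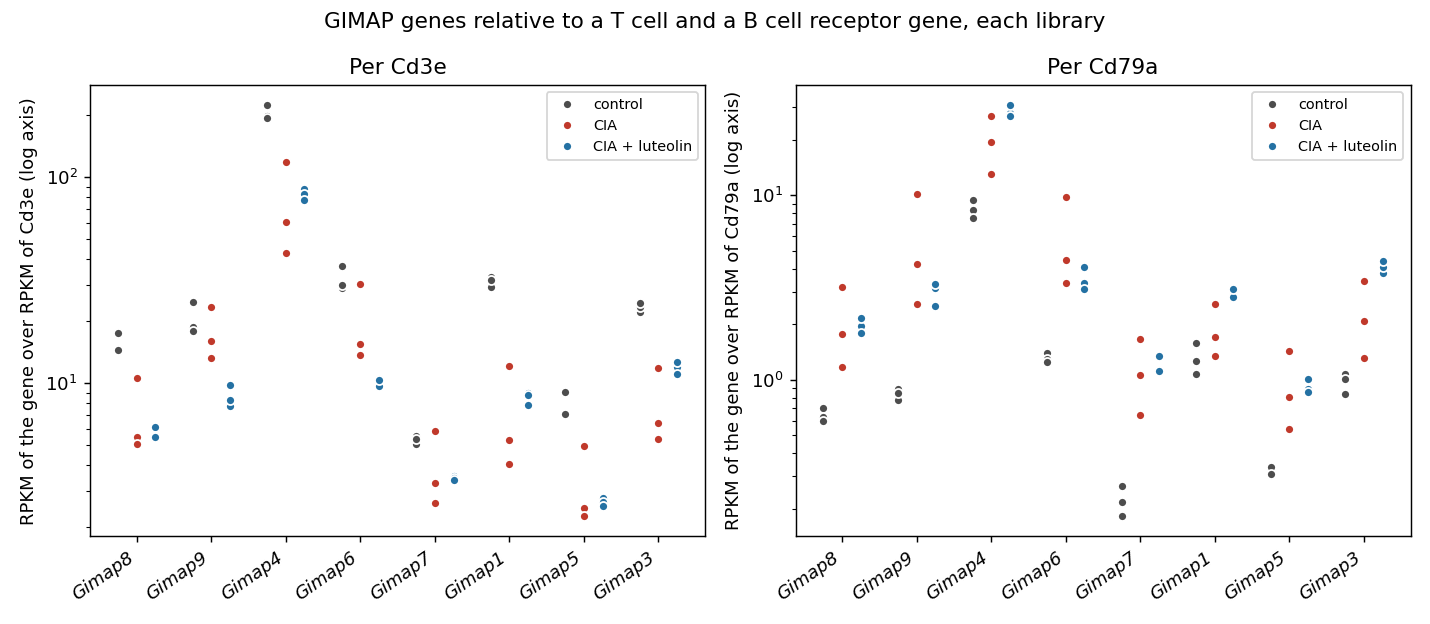
RPKM of each GIMAP gene over that of Cd3e (left) and of Cd79a (right) in each library, on log axes, with a dot per library and colours for the groups. Per Cd3e, which was itself higher with luteolin, the luteolin dots lie below the control dots for all 8 genes, as for 72.5% of all genes; per Cd79a, which was itself lower, they lie above for all 8, as for 96.1% of all genes.

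Cells other than T cells that express GIMAP genes were followed by whole marker lists. Of 14 T cell markers 12 were higher in CIA and none lower, with a summed level of 425.9 to 469.6 CPM in control, 615.2 to 929.5 in CIA and 589.6 to 614.3 with luteolin. Of 12 B cell markers 8 were lower in CIA and none higher, and all 12 were lower with luteolin than in control. Their sum was 2258 to 2347 CPM in control, 320.2 to 1892 in CIA and 466.6 to 574.4 with luteolin. The B cell kinase gene Blk fell from 124 to 41.1 CPM in CIA. The 8 NK cell markers summed to 30.2 to 33.9 CPM in control, 31.8 to 46.0 in CIA and 26.9 to 29.3 with luteolin, with 3 higher and 1 lower in CIA. Of 9 tested endothelial markers 3 were higher and 2 lower in CIA. The sum of all 12 listed, 80.5 to 99.9 CPM over all libraries, was mostly Pecam1, which other leukocytes make as well. With luteolin, 5 T cell markers were lower than in CIA and 1 higher, and 4 B cell markers were lower and none higher. Of the NK cell markers 4 were lower and 2 higher, and of the endothelial markers 2 were lower and 2 higher. Of all genes tested, 24.2% were lower and 23.1% higher in this comparison. In CIA against control 26.6% were higher and 24.5% lower, and in luteolin against control 24.2% were higher and 20.8% lower.

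Lists of other cells were followed in the same way. Of 12 neutrophil markers 11 were higher in CIA than in control and none lower. Their sum was 2051 to 2422 CPM in control, 6714 to 11349 in CIA and 8543 to 8986 with luteolin. With luteolin 5 of the 12 were higher and 7 lower than in CIA, so similar sums hide different changes. Mpo went from 1.54 CPM in CIA to 261 with luteolin, and S100a9 from 6744 to 3971. Of 12 macrophage markers 10 were lower in CIA, and all 12 were higher with luteolin than in CIA. Mertk, a macrophage receptor for dying cells, was at 3.75 CPM in control, 0.199 in CIA and 16.4 with luteolin. All 8 mast cell and basophil markers were higher in CIA, and 7 of 8 higher again with luteolin, while 7 of 8 platelet markers were higher in CIA. Of 7 tested dendritic cell markers 4 were lower and 1 higher in CIA, and with luteolin 3 were higher and 1 lower than in CIA. Flt3, a growth factor receptor of these cells, was at 17.5 CPM in control, 3.42 in CIA and 17.1 with luteolin. Of 5 tested erythroid markers none passed in CIA, and 4 were lower with luteolin, both against CIA and against control. The sum of all 8 erythroid markers listed was 3.68 to 5.56 CPM in control, 5.50 to 5.96 in CIA and 1.42 to 1.69 with luteolin. None of these lists held a marker at 0 in all libraries. The part of any of these cells in the GIMAP values was not tested.

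Within the cluster lie 4 tested rows that are not members. Gimap1os, on the strand opposite Gimap1, shares 1107 of its 3113 exonic bases with Gimap1, which is 36% of the bases of Gimap1. It was at 200 ± 45.0 CPM in control, 109 ± 30.3 in CIA and 99.2 ± 8.54 with luteolin, and its counts were 57.9% to 68.3% of those of Gimap1 in every library. The library kit is described as stranded but the strand setting of the counting is not stated, so reads in the shared bases may not have been told apart. The part of such reads in the change of Gimap1 was not tested. Gm28053, an unnamed gene model on the plus strand, has exons that overlap Gimap7, Gimap1 and Gimap5 and was lower in CIA (-0.71 ± 0.18, adjusted p = 0.00732). It shares 6.44% of the exonic bases of Gimap1, 3.69% of those of Gimap5 and 3.48% of those of Gimap7.

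Gm28053 held 195%, 146% and 156% of the counts of Gimap7 in CIA and 497% to 567% in control, so reads shared between these rows could matter for Gimap7, the lowest member. Its counts followed those of Gimap1 more closely, at 64.7% to 75.9% in every library. Between Gimap5 and Gimap3 lie the gene models Gm44226 and 4833403J16Rik. 4833403J16Rik was at 11.8 CPM in control, 15.2 in CIA and 8.91 with luteolin, higher in CIA (0.37 ± 0.10, adjusted p = 0.0102) and lower with luteolin than in CIA (-0.77 ± 0.10). Gm44226 did not pass in CIA (0.24 ± 0.09, adjusted p = 0.0502) and was lower with luteolin than in CIA (-0.42 ± 0.09).

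Outside the cluster, 23 tested genes lay within 500 kb. In CIA 5 of them were higher and 8 lower, and with luteolin 7 were higher and 3 lower than in CIA. Of all genes tested, 51.1% passed in the first comparison and 47.3% in the second, so the counts alone say nothing particular to these neighbours. The nearest tested gene on each side is given, and the macrophage gene Gpnmb, chosen for its size of change in luteolin against CIA. Zfp775, a zinc finger gene 24.0 kb to the left, was at 4.61 CPM in control, 2.69 in CIA and 3.35 with luteolin. Tmem176b, which encodes a membrane protein of myeloid cells and lies 63.0 kb to the right, went from 3.37 CPM in control to 13.3 in CIA and 26.4 with luteolin. Gpnmb, a glycoprotein gene 265.7 kb to the right, was at 420 CPM in control, 40.1 in CIA and 895 with luteolin.

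GIMAP proteins are known to act beside the BCL2 family of death regulators, the ATG8 proteins and the kinase GSK3. Of 10 BCL2 family genes 3 rose and 3 fell in CIA, and with luteolin 3 were higher and 4 lower than in CIA. Bcl2 itself, a survival factor of resting lymphocytes, fell from 84.8 to 48.1 CPM in CIA (-0.82 ± 0.15), while its relative Bcl2l1, which protects activated cells, rose from 33.4 to 72.4 CPM (1.12 ± 0.22). Bcl2l11, the death-promoting relative that opposes both, was at 56.2, 74.3 and 39.8 CPM in control, CIA and luteolin. It was higher in CIA (0.40 ± 0.11) and lower with luteolin than in CIA (-0.90 ± 0.11). Bcl2a1b and Bak1, also of this family, went the other way. They were lower in CIA (-1.108 and -0.333) and higher with luteolin than in CIA (1.465 and 1.256). Bad did not pass in CIA (-0.208) and was higher with luteolin than in CIA (1.031). Of 5 ATG8 genes 3 rose in CIA and 3 were lower with luteolin. Gabarapl2, whose product Gimap6 binds, was at 17.4, 22.3 and 15.8 CPM (0.36 ± 0.09 and -0.50 ± 0.09). Gsk3a and Gsk3b did not pass in CIA, and Gsk3a was lower with luteolin (-0.44 ± 0.10).

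Of 14 genes of naive T cell survival and homing, 2 rose and 9 fell in CIA, with a median of -0.47. Of all genes tested, 26.6% were higher and 24.5% lower in CIA. Of the 14 T cell markers 12 were higher in CIA, and the part of B cells or other cells in these values was not tested. Il7r, the receptor for the survival cytokine IL-7, did not pass (0.37 ± 0.15, adjusted p = 0.0626). S1pr1, which lets T cells leave lymphoid tissue, went from 131 CPM in control to 91.6 in CIA and 45.4 with luteolin, lower in each step (-0.52 ± 0.18 and -1.01 ± 0.18). Foxp1, a factor that keeps T cells quiescent, went from 168 to 108 and 73.0 CPM. Bcl11b, a factor of T cell identity, was at 19.0, 47.0 and 38.9 CPM and rose in CIA (1.31 ± 0.18). Against control, luteolin libraries were lower in 10 of the 14 and higher in 3, where 20.8% of all genes were lower and 24.2% higher.

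The genes whose levels over the 9 libraries were most like the mean of the standardised GIMAP levels were Helz, Cdc25b, Ets1, Setbp1, Ndrg3 and Stx16. They were ranked among 11009 tested genes with a mean of at least 2 CPM. The members, unnamed gene models, pseudogenes and receptor segments were left out of the ranking. Their likeness, as Pearson's r of log2 levels over 9 libraries, was 0.990 for Helz and 0.969 to 0.982 for the other 5. These r describe 9 libraries that fall into 3 groups, and so they carry mostly the differences between groups. Ets1, a transcription factor of lymphocytes, was at 329 CPM in control, 373 in CIA and 228 with luteolin, and Helz, an RNA helicase gene, at 87.4, 93.2 and 70.1 CPM. Among the members the same measure was highest for Gimap5 with Gimap8, at 0.984, and for Gimap6 with Gimap8, at 0.953. It was lowest for Gimap3 with Gimap9, at -0.435.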

How the data were processed

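Paired reads of 9 stranded mRNA libraries came from a DNBSEQ-T7 instrument, per the labels' protocols. Trimmomatic 0.36 is listed among the tools, per the submitters' processing notes. The authors deposited unnormalized counts for each gene, and the counter was featureCounts (Subread 1.5.1), per the labels' protocols. The build is mm39 per the submitters' processing notes; the labels' protocol gives CHOK1GS, a hamster genome, but the rows are mouse genes. How strand and reads over more than 1 gene were handled, and which annotation release was used, are not given in the sources used here. Gene lengths are those of the deposited table.

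Counts were tested with edgeR 4.0.16 in R 4.3.3, with filterByExpr (19348 of 56860 genes kept), TMM scaling and the quasi-likelihood test, fitted to all 9 libraries with each group as a term. Adjustment was by Benjamini-Hochberg over all tested genes, with a threshold of 0.05, 2-sided. SE was taken from the log2 fold change and its F statistic (absolute change over root F). CPM uses TMM-scaled library sizes, and RPKM divides it by gene length. All 8 members are named. So are genes inside the cluster, tested genes within 500 kb, the 6 genes most like the members and up to 4 genes per list with the smallest p, from which some examples were drawn. Cd4, Cd8a, Cd3e, Cd79a, S100a9, Bcl2, Bcl2l1 and Il7r were added after their values were seen. The members, lists and tests were chosen with earlier results of these data known. Ratios to Cd3e and Cd79a were compared by exact permutation over libraries, for the members and for all tested genes with counts in every library. The procedures were tested on simulated data. Alternatives were RLE scaling, DESeq2 1.42.0, other filters, halved counts (both mates of a pair may have been counted), fewer libraries and a replicate block.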

Additional observations from a re-analysis of the deposited data

How the results depend on the processing

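The number of members past the threshold was 5 in each comparison and, under the alternatives that keep all replicates of the groups compared, 4 to 5 in CIA against control, 5 to 6 in luteolin against CIA and 5 to 7 in luteolin against control. The count of 7 came from the fit of only the 6 libraries compared, where 10792 of 18533 genes passed. Leaving out 1 replicate gave 4 to 6, 5 to 7 and 4 to 5. Of all genes tested, 9886, 9148 and 8708 passed, and without 1 replicate 8073 to 11065, 7289 to 9884 and 6835 to 7552. Over the members' fold changes, 291 of 312 values under an alternative kept their direction and their side of the threshold, 8 lost the call, 10 gained it and 3 changed sign. The changes of sign were Gimap4 in CIA against control without CIA replicate 3 (0.101, with -0.222 to 0.101 over the left-out replicates), and, in luteolin against CIA, Gimap1 without CIA replicate 1 (0.003, range -0.394 to 0.003) and Gimap3 without CIA replicate 3 (-0.024, range -0.024 to 0.186). None of these 3 passed the test with all libraries or without the one named; the cause was not tested. For Gimap9, Gimap6 and Gimap7 the higher calls in CIA against control, and the lower calls with luteolin against CIA, held under every alternative run. So did the lower call of Gimap1 in CIA against control, and those of Gimap5 and Gimap8 with luteolin against CIA. The number of members whose ratio to Cd3e differed, with adjustment over the members, was 7, and 0 to 8 without 1 replicate, where 82.5% of all genes had an unadjusted exact permutation p under 0.05 with all libraries; Gimap9 was not among them without luteolin replicate 2, and Gimap7 was without CIA replicate 1.

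Same-numbered libraries of different groups had correlations of 0.007 to 0.143 in their deviations from the group means, with 2 of 9 pairs above 0.1. The main fit did not take the numbers to pair the samples. However, in 16 of 18 cases a library was nearest, of the 3 in another group, to its own number. Total counts also fell from replicate 1 to 2 to 3 in every group, as from 40553934 to 38520680 and 31234177 in control. These are hints from the data only, so a fit with a replicate block was also run. With a replicate block 9794, 9148 and 8764 genes and 5, 5 and 6 members passed; Gimap4 was then called lower with luteolin than in control (-0.41, adjusted p = 0.0260).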

Other observations

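Each member also had genes of its own that were most like it over the 9 libraries, a ranking that was added after the data were seen. Gimap1 was followed most closely by Tmed8, Msi2 and its antisense gene Gimap1os, with r of 0.993 to 0.995 in log2 levels. Tmed8 was at 79.0 CPM in control, 53.2 in CIA and 48.3 with luteolin. Gimap9 was followed by Eif4enif1, which encodes a carrier of a translation factor, Ube2h, a ubiquitin-conjugating enzyme gene, and Ankrd37, a gene induced by low oxygen, with r of 0.991 to 0.993. Ankrd37 was at 9.63 CPM in control, 48.7 in CIA and 7.49 with luteolin. Gimap7 was followed by Unc119, Il17ra and Dzip1, with r of 0.957 to 0.965. Il17ra, the receptor chain for IL-17, was at 151 CPM in control, 213 in CIA and 173 with luteolin. Gimap3 had the least close followers, at 0.925 to 0.952. The r describe 9 libraries in 3 groups and were the highest out of the same 11009 genes, so other members and gene models such as Gm28053 could not appear.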
